A study of Mus musculus with 2 samples.

Results

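Genes bound by Sap130 at alternative start sites were described in embryonic mouse heart. They were chosen by the peak positions themselves. The deposited table names a transcript for most peaks, a promoter peak being one whose midpoint fell within 1000 bp of that transcript's start, and a gene was included when its promoter peaks lay at start sites more than 1000 bp apart on the same chromosome. Of 11011 gene symbols with a promoter peak, 187 met this rule, which is 1.70% (95% exact Clopper-Pearson interval 1.47 to 1.96). They held 467 of the 12760 promoter peaks and 395 distinct start sites. The authors' table has 16697 peaks in all. The study has 1 Sap130 antibody library from wild-type (B6) heart at E13.5 and 1 input library of B6 wild-type heart, labelled E13.6. The table is named as the Sap130 library against the input, with no parameters given. There were no replicates, so no test was made, and intervals cover only counting error over genes, or over peaks where peaks are counted. The table gives no height, fold enrichment or read count, so depth is unknown. The values of a peak are its position, its width and its place in the authors' order, whose criterion is not stated and which is counted from 1 at the top. Whole hearts hold many cell types, so binding in fewer cells and less binding per cell cannot be told apart.

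Sap130 is a subunit of the Sin3 complex, which carries histone deacetylases to promoters and is best known for holding transcription down. Many mammalian genes have more than 1 promoter. Each promoter supplies its own first exon, so the choice between them can change the untranslated leader of the mRNA, the amino terminus of the protein, or the tissue in which the gene is transcribed. Heart genes known for this include Tpm1, Mitf and the retinoic acid receptor genes. For each gene the outermost bound sites are called the 5′-most and the 3′-most site, by the direction of transcription. Among cell type markers, 8 of 9 cardiomyocyte marker genes had a promoter peak, against 6 of 10 endothelial and 0 of 8 blood cell markers. Over the RefSeq promoter table, 20214 of 32851 listed promoters had no peak midpoint within 1000 bp. That count is of promoters and takes peaks of any name, so it is not a like background for marker genes. The marker counts are small and are of occupancy and not of expression, so they cannot check the tissue label. None of these markers was bound at alternative sites.

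The promoters that the comparison of sites turns on are printed for 5 genes, each as the 250 bases before the start site, 5′ to 3′ on the strand of the gene, from RefSeq on build GRCm38.p6. Capitals mark each CpG dinucleotide. The stretches are set by the start site and are not the sequence under the peaks. At the Mitf 3′-most, Hopx 5′-most and Lmna 5′-most sites they lie wholly outside the earliest peak of that site. Mitf and Dnmt3a are shown because the 5′-most promoter held more CpG, Hopx because the 3′-most did, Sin3a because both were rich in CpG and Lmna because neither was.

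Mitf 5′-most promoter (chr6:97806808-97807057, plus strand): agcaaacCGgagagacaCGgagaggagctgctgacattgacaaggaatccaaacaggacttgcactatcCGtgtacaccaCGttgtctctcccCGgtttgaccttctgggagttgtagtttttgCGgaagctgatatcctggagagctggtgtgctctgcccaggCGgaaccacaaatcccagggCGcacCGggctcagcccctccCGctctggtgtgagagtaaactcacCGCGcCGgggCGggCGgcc

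Mitf 3′-most promoter (chr6:97929567-97929816, plus strand): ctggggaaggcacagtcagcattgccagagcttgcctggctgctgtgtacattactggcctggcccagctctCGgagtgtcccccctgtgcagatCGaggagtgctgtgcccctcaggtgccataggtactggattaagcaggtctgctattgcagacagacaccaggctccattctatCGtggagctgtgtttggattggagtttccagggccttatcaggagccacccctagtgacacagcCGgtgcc

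Dnmt3a 5′-most promoter (chr12:3806910-3807159, plus strand): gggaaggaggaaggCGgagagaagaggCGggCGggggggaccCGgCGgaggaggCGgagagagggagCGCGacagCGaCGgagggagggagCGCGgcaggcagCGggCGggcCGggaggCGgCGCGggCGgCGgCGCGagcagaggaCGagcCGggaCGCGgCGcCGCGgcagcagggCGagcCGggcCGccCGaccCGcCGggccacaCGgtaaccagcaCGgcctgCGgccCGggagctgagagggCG

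Dnmt3a 3′-most promoter (chr12:3891494-3891743, plus strand): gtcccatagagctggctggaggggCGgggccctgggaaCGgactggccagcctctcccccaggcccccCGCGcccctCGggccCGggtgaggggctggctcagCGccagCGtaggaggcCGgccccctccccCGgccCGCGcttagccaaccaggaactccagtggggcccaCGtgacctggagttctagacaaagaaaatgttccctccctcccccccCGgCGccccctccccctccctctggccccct

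Hopx 5′-most promoter (chr5:77115124-77115373, minus strand): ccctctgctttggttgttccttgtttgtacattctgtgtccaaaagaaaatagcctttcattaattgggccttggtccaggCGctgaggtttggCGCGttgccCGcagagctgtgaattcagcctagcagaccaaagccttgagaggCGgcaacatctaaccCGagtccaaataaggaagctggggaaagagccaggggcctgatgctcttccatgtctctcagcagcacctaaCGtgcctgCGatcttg

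Hopx 3′-most promoter (chr5:77095268-77095517, minus strand): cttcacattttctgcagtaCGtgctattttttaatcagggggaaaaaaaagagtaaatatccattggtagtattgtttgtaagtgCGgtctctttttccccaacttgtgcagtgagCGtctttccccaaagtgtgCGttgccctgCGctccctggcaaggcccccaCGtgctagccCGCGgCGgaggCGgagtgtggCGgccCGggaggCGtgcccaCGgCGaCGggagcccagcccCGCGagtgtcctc

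Sin3a 5′-most promoter (chr9:57071790-57072039, plus strand): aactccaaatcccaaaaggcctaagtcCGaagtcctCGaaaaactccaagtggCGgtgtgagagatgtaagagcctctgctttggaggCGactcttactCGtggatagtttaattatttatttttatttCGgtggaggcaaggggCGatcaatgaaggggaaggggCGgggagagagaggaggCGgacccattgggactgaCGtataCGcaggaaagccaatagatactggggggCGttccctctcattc

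Sin3a 3′-most promoter (chr9:57076126-57076375, plus strand): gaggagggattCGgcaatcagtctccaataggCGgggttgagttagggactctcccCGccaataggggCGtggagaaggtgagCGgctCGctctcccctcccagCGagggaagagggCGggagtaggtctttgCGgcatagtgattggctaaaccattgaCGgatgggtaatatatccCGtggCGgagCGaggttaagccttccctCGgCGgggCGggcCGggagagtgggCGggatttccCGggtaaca

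Lmna 5′-most promoter (chr3:88503353-88503602, minus strand): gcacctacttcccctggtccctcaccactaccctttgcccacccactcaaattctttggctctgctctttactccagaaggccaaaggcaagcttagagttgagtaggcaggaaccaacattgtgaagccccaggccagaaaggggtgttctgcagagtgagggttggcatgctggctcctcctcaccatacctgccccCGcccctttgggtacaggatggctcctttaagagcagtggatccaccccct

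Lmna 3′-most promoter (chr3:88493313-88493562, minus strand): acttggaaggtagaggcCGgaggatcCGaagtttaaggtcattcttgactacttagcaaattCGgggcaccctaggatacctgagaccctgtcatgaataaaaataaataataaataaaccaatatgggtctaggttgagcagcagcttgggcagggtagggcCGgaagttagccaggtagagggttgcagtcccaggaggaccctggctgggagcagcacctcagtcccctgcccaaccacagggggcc

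Of these, the Mitf stretches held 15 CpG at the 5′-most and 4 at the 3′-most site, and those of Dnmt3a 40 and 15. The Hopx stretches held 8 CpG at the 5′-most and 18 at the 3′-most site. The Sin3a stretches held 12 and 19, and those of Lmna 1 and 4.

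The distance between the outermost sites had a median of 19856 bp, with quartiles of 4250.5 and 56590 bp and a range of 1045 to 496283 bp. The rule sets its lower end, and the median was 9348 bp with a spacing of 500 bp, 35342 bp with one of 5000 bp and 10601.5 bp within the first 8348 positions of the order. In 56 genes (29.9%, 23.5 to 37.1) the sites lay at most 5000 bp apart, and in 20 genes (10.7%) more than 100000 bp apart. The genes lay on 20 chromosomes, with the most on chromosome 2 (24 genes), and 97 were transcribed from the plus strand and 89 from the minus strand. The remaining symbol, the histone gene Hist2h2aa2, named the same transcript at positions on both strands 5083 bp apart, so its peaks lie at gene copies and not at alternative starts, and it is left out of the comparisons of 5′-most and 3′-most sites in 186 genes.

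**Figure D1:**
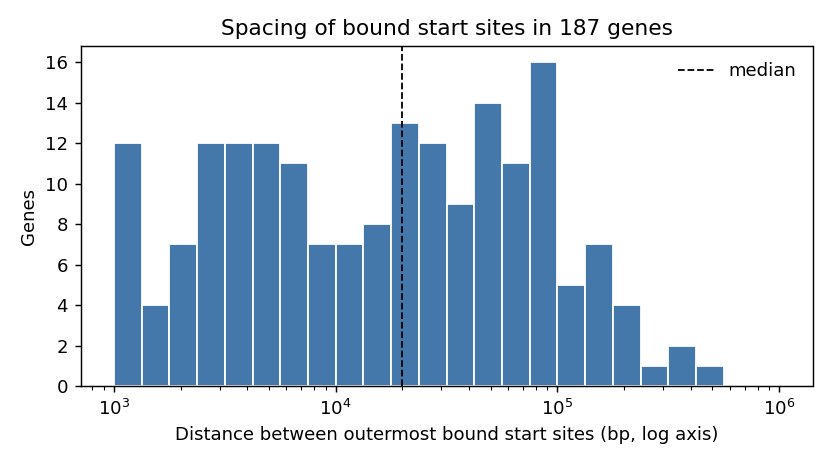
Number of genes by distance between the outermost bound start sites (bp, log axis) for the 187 genes, with the median of 19856 bp as a dashed line. The distances spread over the whole range from 1045 to 496283 bp.

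At the edge of the rule, the nearest included sites were those of Slx4ip (1045 bp), Mtag2 (1070 bp), Rai14 (1091 bp), Pcgf2 (1113 bp) and Phf17 (1129 bp). Just short of it were Lcorl (988 bp), Fhdc1 (948 bp), Socs2 (929 bp) and Elp5 (905 bp). A further 85 genes had promoter peaks at distinct start sites at most 1000 bp apart, these among them. The peaks at the outermost sites never touched, the smallest gap being 66 bp, but in 17 of 186 genes (9.14%, 5.41 to 14.2) the gap was under 500 bp.

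Plec stood apart with 6 bound start sites, 12 genes had 3 and 174 had 2. Plec encodes plectin, a giant linker of intermediate filaments to cell junctions and muscle Z-discs, whose variants differ in their first exon. Its 6 peaks lay along 33169 bp of chromosome 15, each naming a different transcript. The peak at the start site at 76229497 came first in the order, at position 4550, and was 1046 bp wide. The other 5 stood at positions 11355 to 15411 and were 209 to 983 bp wide. The peak named for the 5′-most start site, at 76231378, was centred at -755.5 bp and did not reach that site, and the one named for the site at 76208253 also missed its site, with the midpoint 774 bp downstream.

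Among the genes with 3 sites, Igf2 encodes the imprinted fetal growth factor IGF-II. It had 5 promoter peaks at start sites 142661035, 142658804 and 142657481 of chromosome 7. The middle site held the earliest peak (position 7906, 1328 bp), while the 5′-most site had peaks at positions 12978 and 15218 and the 3′-most at 13417 and 14517. Hnrnpf, which encodes a splicing regulator, also had its earliest peak in the middle, at position 417 and 2136 bp wide, against 10503 at the 5′-most and 5999 at the 3′-most site. Tgif1, a homeodomain repressor that restrains TGF-beta signalling, had wide peaks of 2416 bp at its 3′-most and 2225 bp at its middle site, with 471 bp at the 5′-most. In these 3 genes the 5′-most site therefore held neither the earliest peak nor, in Hnrnpf and Tgif1, the widest.

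Several other genes with 3 sites had their earliest peak at the 3′ end. Add3, a subunit of the actin-spectrin linker adducin, had position 1981 at its 3′-most site, against 8578 at the 5′-most. Ddr1, a collagen receptor tyrosine kinase, had 5660 there, against 15124. Shroom3, an actin-binding protein of epithelial shape, had 5954 at the 3′-most and 15070 at the 5′-most site, 214563 bp upstream. Gse1 and Pde4dip had the reverse. The Gse1 peak at the 5′-most site was 3225 bp wide at position 3761, against 1409 bp and 6387 at the 3′-most. The Pde4dip peaks stood at 6327 at the 5′-most, 8822 at the middle and 9027 at the 3′-most site. Speg, a kinase of striated muscle, had peaks of 660, 546 and 475 bp from the 5′-most to the 3′-most site at positions 11645, 13361 and 12982. Zfp219 and Fam134b, an endoplasmic reticulum receptor of autophagy, had 4 promoter peaks each, and so had Myadm, whose peaks were all 355 bp wide or less. The 2 sites furthest apart in Fam134b lay 99381 bp from each other.

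**Figure D2:**
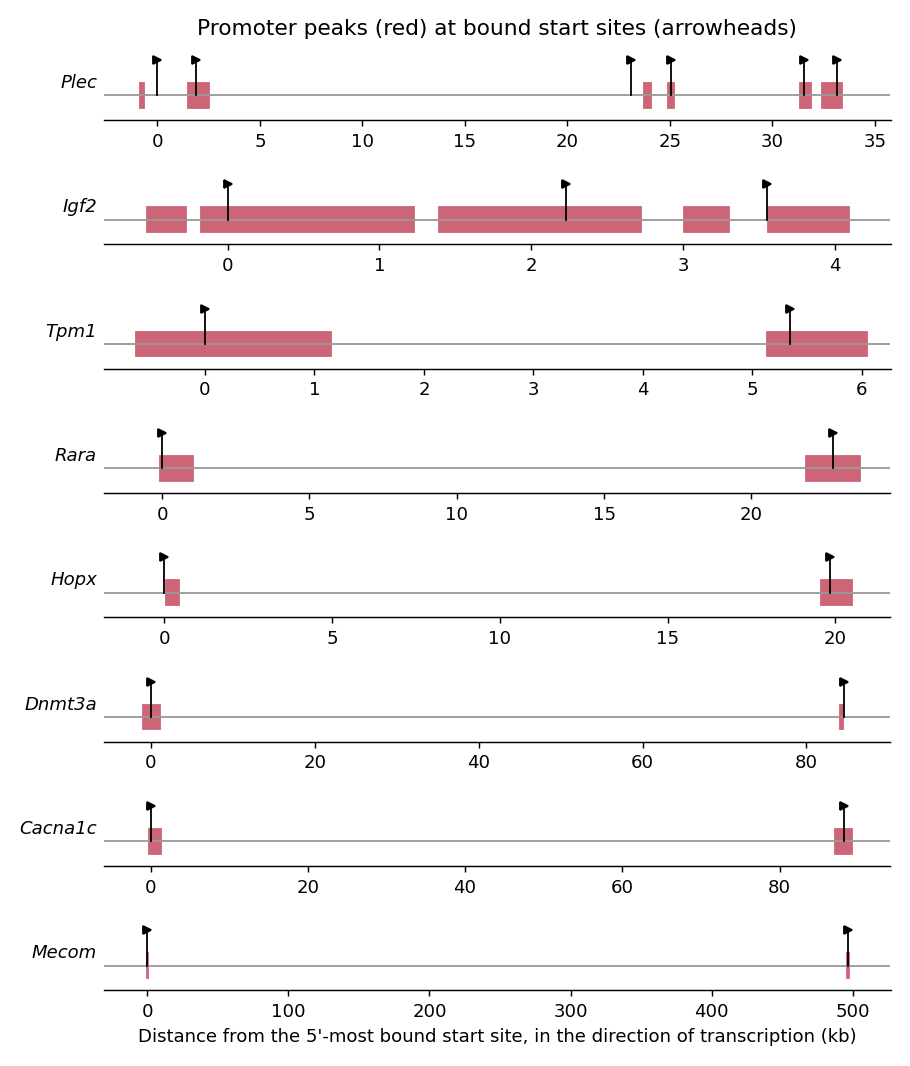
Promoter peaks (red bars, to scale) and bound start sites (arrowheads) in 8 genes, plotted as distance in kb from the 5′-most bound start site in the direction of transcription. Each gene has its own scale, from under 5 kb in Igf2 to 496283 bp in Mecom. Plec shows 6 sites, and the peaks named for 2 of them lie beside the arrowhead.

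Between the sites of the same gene, neither end was consistently the more prominent. The 5′-most site had the wider peak in 103 of 186 genes (55.4%, 47.9 to 62.7) and the earlier peak in 97 (52.2%, 44.7 to 59.5). The earliest peak at each site was used. That peak contained its start site in 142 genes at the 5′-most site and in 140 at the 3′-most. Both did so in 106 of 186 genes (57.0%, 49.5 to 64.2). Median widths were 937.5 bp at the 5′-most and 875 bp at the 3′-most site, and median positions 7314.5 and 8926.5. Widths and positions at the outermost sites of a gene were only weakly related. Across the 186 genes the Spearman rho between the sites was 0.090 for width and 0.080 for position, a description over genes that share 1 library. Both sites stood within the first 8348 positions in 54 genes, only the 5′-most in 52, only the 3′-most in 35 and neither in 45.

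The genes bound early at both sites were ranked by the second in order of their start sites, each start site placed by its earliest peak. The first was Gatad2a, a subunit of the Mi-2/NuRD deacetylase complex, with positions 226 at the 5′-most and 269 at the 3′-most site, 21996 bp apart. Tnpo1, a nuclear import receptor, had 1474 and 1324, and Ubtf, the upstream factor of RNA polymerase I, had 1846 and 2023. Dido1 had 2619 and 2739, Adk, adenosine kinase, had 1617 and 2755, and Asap1 had 2720 and 3122. Rnf44 followed with 3156 and 548, Fbxl12 with 4018 and 3453, Capzb, the beta subunit of actin capping protein, with 715 and 4202, and Set, a histone chaperone and phosphatase inhibitor, with 4250 and 369. All 10 had a peak of at least 1000 bp at 1 or both sites. The earliest peak did not contain its start at the Capzb 5′-most and the Rnf44 3′-most site. The Capzb sites lay 1212 bp apart, and the peak named for the 3′-most began at 139192899, the position of the 5′-most start. The 2 Capzb sites are therefore not cleanly separated.

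**Figure D3:**
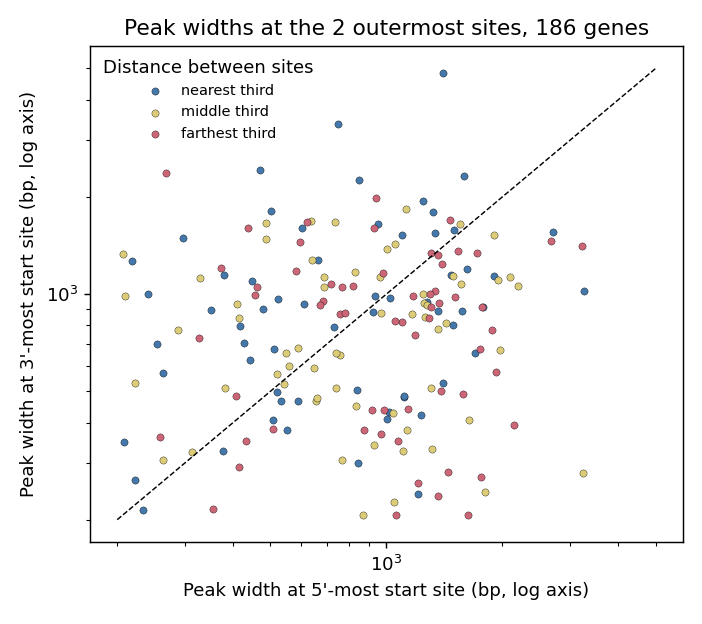
Width of the earliest peak at the 5′-most site against that at the 3′-most site (bp, log axes) in 186 genes, coloured by the distance between sites. Points lie on both sides of the dashed line of equal width, with 103 genes below it.

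The balance between the sites moved with their distance, in classes of 62 genes set after the data were seen. Where the sites lay 1045 to 5919 bp apart, the 5′-most peak was wider in 29 genes (46.8%, 34.0 to 59.9) and earlier in 24 (38.7%, 26.6 to 51.9). Where they lay 41480 to 496283 bp apart, the 5′-most peak was wider in 39 (62.9%, 49.7 to 74.8) and earlier in 40 (64.5%, 51.3 to 76.3). The genes between these had values of 35 and 33. The intervals of the outer classes overlap, and no test of the difference was made.

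The second site usually belonged to a transcript with another coding start. In 179 of 186 genes the transcripts at both outermost sites were coding, and in 121 of these (67.6%, 60.2 to 74.4) the first coding base lay at different positions. In the other 58 genes the coding start was the same and the transcripts differed in their leaders. Genes with different coding starts had a median distance of 33246 bp between sites, and those with the same coding start 5362.5 bp. The share with different coding starts was 45.6% (26 of 57) where the sites lay nearest, 65.0% (39 of 60) in between and 90.3% (56 of 62) where they lay furthest apart. The coding span was not used by the rule. However, a 3′-most start past the first coding base of the 5′-most transcript must have a different coding start. The share among all annotated genes with distant starts was not computed, so these values describe the annotation of these genes only. A shared coding start also occurred at long distances, as in Sgms1, with sites 177441 bp apart.

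**Figure D4:**
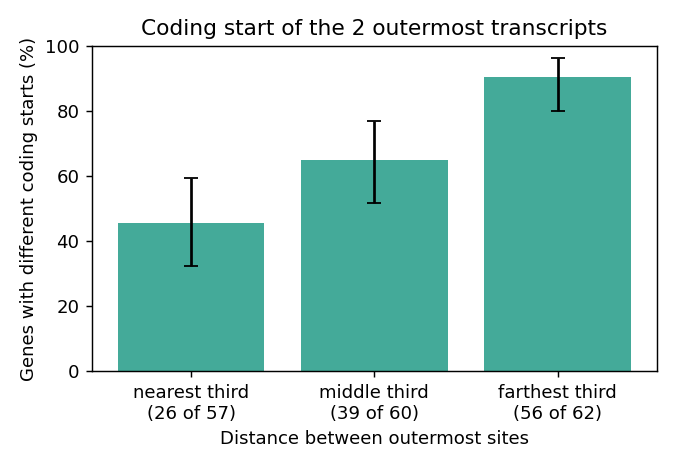
Percentage of genes whose transcripts at the outermost bound sites begin coding at different positions, by distance between the sites, with 95% exact intervals as bars. The share is 45.6% for the nearest, 65.0% for the middle and 90.3% for the farthest class.

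The 3′-most site lay in an intron of the 5′-most transcript in 179 of 186 genes, in intron 1 for 109 (58.6%, 51.2 to 65.8) and in intron 2 for 29. In Brd2 it lay in exon 2, and in 6 genes, among them Mecom and Crem, it lay outside the span of the 5′-most transcript, which ended before it. In Osbpl1a it lay in intron 15. Another peak was centred between the outermost sites, over 1000 bp from each, in 56 genes (30.1%, 23.6 to 37.2), 79 peaks in all.

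Outermost sites were furthest apart in Mecom. This gene, which encodes a zinc finger regulator of haematopoietic and cardiac development, had its sites 496283 bp apart, with peaks of 584 bp at position 9601 at the 5′-most and 1183 bp at position 9949 at the 3′-most site. The 5′-most transcript ends before the 3′-most site. Esrrg, an orphan nuclear receptor of mitochondrial energy metabolism, had 388821 bp, with widths of 818 and 1063 bp. Oxr1 had 341552 bp and the cAMP phosphodiesterase gene Pde4b 315121 bp. Mllt3, a subunit of the super elongation complex, had 227093 bp, with position 4927 at the 5′-most and 15152 at the 3′-most site. Dlc1, a GTPase-activating protein for RhoA, had 219388 bp. Prkag2, a regulatory subunit of AMP-activated kinase, had 192133 bp and its earlier peak at the 3′-most site (4744, against 11366 at the 5′-most). Sgms1 (177441 bp), Prickle2 (171323 bp) and Shroom3 complete these 10. The earliest peaks of Pde4b contained neither outermost start site. Those of Mllt3 and Prkag2 missed the 5′-most start, and that of Dlc1 missed the 3′-most.

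Of genes known from textbooks for alternative promoters, 14 of 33 with a promoter peak were bound at more than 1 site, 42.4%, beside 1.70% of all symbols with a promoter peak. The list was drawn up for this property, so this count describes how the deposited annotation and the peaks meet and is no finding about the list. They include Crem, Dnmt3a, Dst, Gnas, Igf1, Igf2, Lmna, Mecom, Mitf, Plec, Rara, Rarg and Tpm1. Mitf, the melanocyte and mast cell factor that is also expressed in heart, had a peak of 1074 bp at position 8710 over its 5′-most start, and peaks of 350 and 238 bp at positions 15158 and 15559 on either side of the 3′-most start, 122759 bp downstream. Lmna, which encodes A-type lamins, had 1167 bp at position 6204 at its 5′-most and 869 bp at 13207 at its 3′-most site. Igf1 had peaks of 297 and 1494 bp at positions 12055 and 11198, neither containing its start site. Gnas had 4 peaks around 2 sites 2175 bp apart, at positions 7178 and 11424 for the 5′-most and 7971 and 9135 for the 3′-most. Crem, whose internal promoter is known for the repressor ICER, had its earliest peaks at position 11578 at the 5′-most and 15926 at the 3′-most site.

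Other genes of that list were bound at a single site by the rule. Mdm2 had 1 promoter peak at position 2144, Cux1 at 3819, Tpm3 at 4153, Bcl2l1 at 4467, Tcf7 at 5264, Nfix at 5715 and Cdkn2a at 7253. Nfib had 1 promoter peak at 5013 but 8 peaks named for it in all, whatever their distance from a start. Each peak names a single transcript, so a start without a peak named for it may still have a peak nearby.

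Of 43 cardiac transcription factors with a promoter peak, 4 were bound at alternative sites (9.30%, beside 1.70% of all symbols with a promoter peak). Among the 4, Rara and Rarg are also on the textbook list, which was drawn up for this property, so this share is not separate from it. Hopx, an unusual homeodomain protein that restrains serum response factor in heart muscle, had a peak of 410 bp at position 14058 at the 5′-most site and one of 935 bp at position 7524 at the 3′-most, 19856 bp apart. The 5′-most peak did not contain its start site and the 3′-most did. Nfatc1, a factor of heart valve formation, had 1621 bp at position 6489 at the 5′-most and 1195 bp at 4787 at the 3′-most site. Rara and Rarg, receptors for retinoic acid, each have a pair of known promoters. The Rara peaks were 1124 bp at position 1929 at the 5′-most and 1833 bp at 5335 at the 3′-most site, on chromosome 11 at start sites 98937718 and 98960471, and both contained their start site. Rarg had positions 11664 at the 5′-most and 9773 at the 3′-most site, with peaks of 381 and 512 bp. The Rarg 5′-most peak did not contain its start site.

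Of 63 genes of the chromatin and Sin3 list with a promoter peak, 4 were bound at alternative sites (6.35%, beside 1.70% of all symbols). Among them, Dnmt3a is also on the textbook list. Sin3a, the scaffold of the complex that Sap130 belongs to, had a peak of 1904 bp at position 4544 at the 5′-most site, 4336 bp upstream of the 3′-most site, which had peaks at 1649 (1141 bp) and 8997 (696 bp). Its coding start was the same from both. Mxi1, a partner of MAX that recruits Sin3, had position 5372 at the 5′-most and 1159 at the 3′-most site, 19940 bp apart with different coding starts. Dnmt3a, a DNA methyltransferase whose internal promoter gives a shorter enzyme, had 2146 bp at position 2457 at the 5′-most and 394 bp at 11780 at the 3′-most site, which that peak did not contain. Brd2, a reader of acetylated histones, had 1403 bp at position 6256 at the 5′-most and 4837 bp at 1740 at the 3′-most site.

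Of 49 genes of the sarcomere and cytoskeleton list with a promoter peak, 6 were bound at alternative sites (12.2%, beside 1.70% of all symbols). Dst, Plec and Tpm1 of these 6 are also on the textbook list, so this share is not separate from it. None of the 6 encodes a sarcomeric myosin, troponin or cardiac actin. Tpm1, which encodes alpha-tropomyosin, had 1777 bp at position 8524 at the 5′-most and 910 bp at 5770 at the 3′-most site, 5342 bp apart, the start sites being known for the long and the short tropomyosin forms. Cacna1c, the pore subunit of the L-type calcium channel, was counted in this list although it is an ion channel gene. It had 1535 bp at 11970 at the 5′-most and 1357 bp at 5915 at the 3′-most site, 88220 bp apart. Dst, a cytoskeletal linker related to plectin, had 981 bp at 5263 and 1162 bp at 5966, 103600 bp apart. The protein 4.1 genes Epb4.1 and Epb4.1l1 had positions 4294 and 2295, and 10974 and 11125, at the 5′-most and 3′-most sites. The sixth is Plec.

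Of 60 genes of the signalling list with a promoter peak, 2 were bound at alternative sites (3.33%, near the 1.70% of all symbols). Wnt5a, a ligand of non-canonical Wnt signalling, had a peak of 3235 bp at position 7273 at the 5′-most site and one of 280 bp at 15469 at the 3′-most, 5932 bp apart. The peak of 280 bp was centred at -629 bp and did not contain its start site. Pdgfra, a receptor for platelet-derived growth factors, had 448 bp at 13263 at the 5′-most and 1098 bp at 10975 at the 3′-most site with the same coding start. Its 5′-most peak did not contain the start site, with the midpoint 822 bp downstream. As with the other lists, the counts are small, and alternative starts can be found only where the annotation holds them. The 1.70% also counts symbols with a single annotated start. Among RefSeq genes with a bound start and listed starts more than 1000 bp apart, 26.9% (304 of 1132) had 2 or more bound. Peaks of any name count in that figure, and the shares of the lists among such genes were not computed.

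CpG content differed between the sites of many genes. RefSeq promoter sequences of 300 bases, 250 before to 50 after the start, matched both outermost starts exactly in 89 of 186 genes. The ratio of observed to expected CpG had a median of 0.729 at the 5′-most and 0.654 at the 3′-most promoters and was higher at the 5′-most in 50 genes (56.2%). At a ratio of 0.5, both promoters were at or above it in 56 genes, only the 5′-most in 18, only the 3′-most in 10 and neither in 5. In the 28 mixed genes the CpG-rich site had the wider peak in 21, with a median of 994 bp at the CpG-rich and 419.5 bp at the CpG-poor site. In the 56 genes with both above the ratio, the site with more CpG had the wider peak in 31. Base composition also affects sequencing and alignment, and its part in these widths was not tested.

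**Figure D5:**
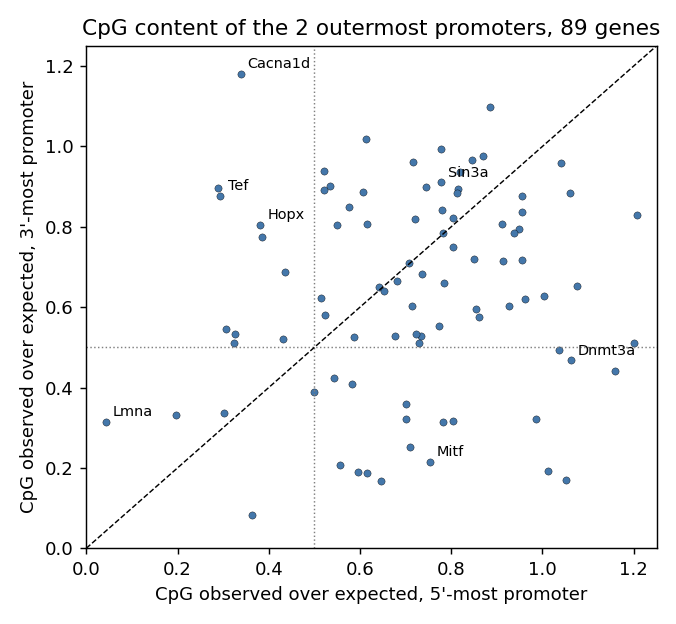
Observed over expected CpG in the 300 bases at the 5′-most promoter against that at the 3′-most promoter in 89 genes with both sequences, with dotted lines at 0.5 and a dashed line of equality. Of these, 56 lie above 0.5 on both axes, and 18 and 10 have only the 5′-most or only the 3′-most promoter above it.

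Mitf, printed above, had ratios of 0.752 at the 5′-most and 0.215 at the 3′-most promoter, and Dnmt3a 1.06 and 0.468. The wider peak lay at the site with the higher ratio in both. The Dnmt3a 3′-most promoter was only just below the ratio of 0.5, and its GC content was 74%. Hopx had 0.381 at the 5′-most and 0.805 at the 3′-most promoter, again with the wider peak at the CpG-rich site. This held in 21 of the 28 mixed genes. Ctnna3 went the other way, with ratios of 1.16 at the 5′-most and 0.441 at the 3′-most promoter and peaks of 641 and 1273 bp. Sin3a had 0.778 and 0.911, and its wider peak lay at the lower of these. Lmna had 0.043 and 0.315, with both promoters poor in CpG, and had peaks of 1167 and 869 bp. The largest contrast towards the 3′ end was at Cacna1d, a calcium channel gene, with 0.338 at the 5′-most and 1.18 at the 3′-most promoter, and at Tef, a clock output factor, the values were 0.294 and 0.877 with peaks of 638 and 1687 bp. Ctnna3, Cacna1d and Tef were chosen after their values were seen.

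Across all matched starts, the 223 outermost promoters of these genes had a median CpG ratio of 0.715, against 0.808 at 6440 named start sites of other genes with a promoter peak and 0.218 at 20214 listed promoters without a peak midpoint within 1000 bp. A set of 5 short motifs was searched on both strands in the same 300 bases. The GC box CCGCCC was found in 74.4% of these promoters, 72.3% of the other bound ones and 35.7% of all 32851 listed promoters. The ETS core CCGGAA was in 17.5% of them, 29.7% of the other bound promoters and 14.9% of all, with 24.7% at the 5′-most and 12.4% at the 3′-most sites of the 89 genes. The CCAAT box CCAAT was in 38.1% of them, 38.9% of the other bound and 37.4% of all promoters, the E-box CACGTG in 11.2%, 10.6% and 7.15%, and the TATA box TATAAA in 3.59% of them and 5.61% of the other bound promoters. All listed promoters include the bound ones. At the 20214 listed promoters without a peak midpoint within 1000 bp, the GC box was in 14.4% and the ETS core in 5.97%. The CCAAT box was in 37.8% of those without a peak midpoint, the E-box in 4.93% and the TATA box in 18.6%. These matches describe letters only.

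The places of these peaks in the order were set beside those of the promoter peaks of other genes. Of their 467 peaks, 44.1% (39.6 to 48.7) stood in the first 8348 positions, against 60.9% (60.0 to 61.8) of the 12293 others. These intervals treat peaks of the same gene as independent, so they do not measure the spread over genes. The median positions were 9124 and 6727. Among these genes the share was 59.2% where the peak had to contain the start site and 74.0% among peaks of at least 682 bp, and the other genes' share under those settings was not computed. Median widths were 748 and 787 bp. The peak contained its start site in 66.0% and 74.0%, and the median midpoint lay 187 bp downstream in both. The rule used these peaks, and it admits genes through a second peak of any position, so these values are given as a description.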

How the data were processed

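Sap130 ChIP-seq of B6 wild-type mouse heart was deposited as 1 peak table for 1 ChIP and 1 input library. Bowtie 1.1.2, MACS2 2.1.0.20140616 and the builds GRCm38 and mm10 are named in the submitters' processing notes. No source used here gives parameters, thresholds, filters or the gene annotation step, which could change the number, width and splitting of peaks. Per the file headers, the authors' table holds positions in bp. Columns without a name hold a transcript with its span, coding span and exons. No count, fold or p-value is used, so depth and precision per peak are unknown. The 2 samples were grouped by their antibody labels.

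Start sites are printed with 1 added to the deposited transcript start or end, the offset that gave exact matches in the RefSeq promoter table. Peak positions are as deposited and uncertain by 1 bp. The rule was applied to deposited symbols and tested on simulated data. Members and lists were chosen with earlier results of these data known, and the lists cannot serve as independent support. Named genes are those with 3 or more sites, the 10 with the widest separation, the 10 bound earliest at their second site, the 5 on each side of the spacing threshold, all list members and 8 textbook genes with a single bound site. Some genes that meet this rule are not reported here. Peaks were compared by count, share and median with no p-value. Alternatives were windows of 500 and 2000 bp, spacings of 500, 2000 and 5000 bp, peaks containing the start site, early peaks, wide peaks, a single strand and merged peaks. Calculations used Python 3.11.15, pandas 2.3.3, NumPy 2.4.6, SciPy 1.17.1 and matplotlib 3.10.9.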

Additional observations from a re-analysis of the deposited data

How the results depend on the processing

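Across 10 alternatives, 52 of 69 recomputed values stayed within 1.5 times the count of genes or within the 95% interval of the value, and 17 moved. The number of genes was 187, with 144 for a 500 bp window, 196 for a 2000 bp window, 221, 169 and 131 for spacings of 500, 2000 and 5000 bp, 125 where the peak had to contain the start site and 145 after peaks under 500 bp apart were merged. It fell to 56 in the first 8348 positions and to 83 among peaks of at least 682 bp, as fewer peaks entered. The median distance of 19856 bp became 9348 and 35342 bp for spacings of 500 and 5000 bp, and 10601.5 bp in the first 8348 positions. The share of genes with the earlier peak at the 5′-most site, 52.2%, was 44.6% in the first 8348 positions. Median widths at the 5′-most and 3′-most sites, 937.5 and 875 bp, were 1052 and 985 bp where peaks contained the start site, 1284 and 1143.5 bp in the first 8348 positions, 1289 and 1107 bp among wide peaks and 1068.5 and 961.5 bp after merging. The share of peaks in the first 8348 positions, 44.1%, became 59.2% where peaks contained the start site, 74.0% among wide peaks and 51.8% after merging. That share has no value within the first 8348 positions themselves. Keeping only peaks of at least 682 bp raises the median widths by construction. Merging joins peaks into wider ones that take the earliest position of those joined. The cause of the other shifts was not tested. No paired analysis was possible because there was 1 library of each kind, and leaving out a replicate was likewise impossible.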

Other observations

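A further 2 reference genes were bound at distant starts under 2 symbols each, and so fell outside the rule. Pakap, named Palm2 and Akap2 in the table, had peaks of 1552 bp at position 5997 and 474 bp at position 11498 at starts 277000 bp apart on chromosome 4. Bcor, a corepressor of BCL6, had a peak of 1429 bp at position 6199, and one of 542 bp at position 10890 named 2900008C10Rik, at starts 79793 bp apart on the X chromosome.

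In the table, 20 symbols on 28 peaks read as dates. By its transcripts 1 of these is Septin9, which is among the 187 genes. It encodes a filament-forming GTPase and had peaks of 1753 bp at position 8133 at its 5′-most and 677 bp at 7337 at its 3′-most site, 66067 bp apart with different coding starts.

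In the RefSeq promoter table, 2276 genes have starts more than 1000 bp apart. Of these, 1132 had a peak midpoint within 1000 bp of at least 1 listed start, whatever the peak was named for, and 304 had separate peaks at 2 or more, 26.9% of the 1132. Of the 304 genes, 174 are not among the 187 genes described. A peak named for a neighbouring gene counts here. Of 139 of the 187 genes with listed starts that far apart, 39 had fewer bound than listed sites.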
